A study of Mus musculus with 4 samples.

Results

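The genes considered here encode 9 receptor chains for cytokines that act early in blood formation: Kit, Flt3, Csf1r, Epor, Csf3r, Csf2rb, Il6st, Csf2ra and Il6ra. They were taken by name from a fixed list, and all 9 were among the 23450 genes listed for each library. Their transcripts were counted by RNA sequencing of mouse bone marrow hematopoietic stem cells (HSCs), sorted as long-term (LT-HSC, 2 libraries) or short-term (ST-HSC, 2 libraries) cells, 2000 cells to a library. LT-HSC were gated as CD48-negative, CD150-positive, CD34-negative and high for the tetraspanin CD9. ST-HSC were gated as CD48-negative, CD150-positive and low for CD9, and no CD34 gate is given for them. The labels give no mouse strain, age, treatment or genotype for either group, and do not tie libraries to animals, so each p-value reflects the spread between these libraries alone, which may be technical.

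Stem and progenitor cells read their surroundings through 2 structural families of such receptors. Kit, Flt3 and Csf1r are receptor tyrosine kinases, single chains with their own kinase domain, which bind stem cell factor, Flt3 ligand and the macrophage growth factor M-CSF. The others are cytokine receptors without a kinase, which signal through bound Janus kinases (JAK) and the STAT transcription factors that these activate. Epor (erythropoietin) and Csf3r (G-CSF, the granulocyte growth factor) work as paired copies of 1 chain. The remaining chains work in mixed pairs, in which a chain specific to 1 ligand joins a shared signalling chain: Csf2ra with Csf2rb for GM-CSF, and Il6ra with Il6st, also called gp130, for IL-6. Kit is part of the usual surface definition of mouse HSCs, and surface Flt3 marks multipotent progenitors downstream of them.

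Of the 9 genes, Flt3 and Csf2rb had lower levels in both LT-HSC libraries than in both ST-HSC libraries, and Epor and Csf2ra had higher levels. In CPM, the reads of a gene per 1000000 reads of its library, Flt3 averaged 14.2 in LT-HSC against 54.2 in ST-HSC, and Csf2rb 30.9 in LT-HSC against 98.7 in ST-HSC. Epor averaged 38.7 in LT-HSC against 14.2 in ST-HSC, and Csf2ra 56.1 in LT-HSC against 31.3 in ST-HSC. For the other 5 genes the groups overlapped. None of the 9 passed the test over all genes: with limma, 0 of 12569 tested genes were higher (0.00%) and 0 were lower (0.00%) past the adjusted threshold of 0.05, with 0.716 as the smallest adjusted p of any gene. The unadjusted threshold of 0.05 was passed by 814 genes (6.48%) with limma and by 586 with limma-voom on reads. One of the 9 receptor genes, Csf2rb, was among the genes lower in LT-HSC at that unadjusted threshold, which held 3.60% of all tested genes. Groups that did not overlap were found for 4 of the 9 genes, against 33.7% of all tested genes (16.2% with LT-HSC above and 17.5% with LT-HSC below), so a count of 4 is not a result about these genes as a set. The median log2 fold change over the 9 was -0.04, beside -0.01 over all tested genes. Every fold change here is LT-HSC over ST-HSC on the scale of log2(CPM + 1), which understates changes of low genes, and those given for single genes are values and not calls.

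**Figure D1:**
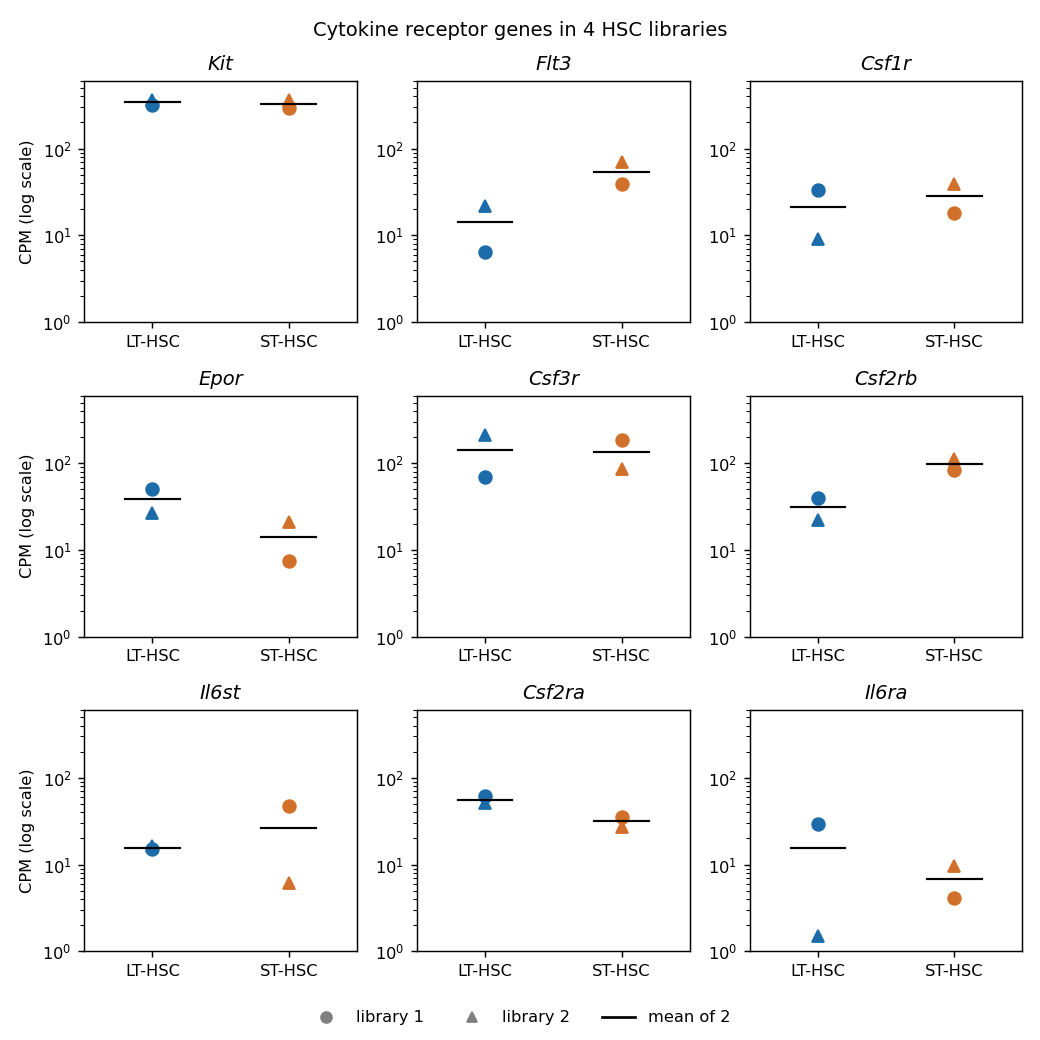
CPM on a log axis for each receptor gene in the 2 LT-HSC and the 2 ST-HSC libraries, with circles for library 1, triangles for library 2 and a bar for the mean of the 2. The groups separate for Flt3, Csf2rb, Epor and Csf2ra, and Kit is level, with means of 340 CPM for LT-HSC and 328 CPM for ST-HSC.

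The reads per library numbered 13063743 and 16143870 in LT-HSC 1 and 2, against 15030732 and 14823531 in ST-HSC 1 and 2. All 9 genes passed the filter of at least 1 CPM in at least 2 libraries, and their reads per library lay between 24 (Il6ra in LT-HSC 2) and 5857 (Kit in LT-HSC 2). The spread within groups was wide. Over the 9 genes, the median absolute difference on the log2 scale was 0.91 for the LT-HSC pair and 1.05 for the ST-HSC pair. Over all tested genes it was 0.69 for the LT-HSC pair and 0.56 for the ST-HSC pair. For 5 of the 9 genes the difference between group means was smaller than the larger of the within-group differences. HSC markers were read in every library, with all 7 listed markers present and summed levels of 3010 and 3080 CPM in LT-HSC against 1970 and 2050 CPM in ST-HSC. Of the genes whose proteins were used in the gates, Cd9 had 134 and 124 CPM in LT-HSC, against 100 and 113 CPM in ST-HSC (log2 fold change 0.28 ± 0.29 SE), and the CD150 gene Slamf1 had 112 and 138 CPM in LT-HSC, against 65.8 and 108 CPM in ST-HSC. Cd48 and Cd34 had 0.153 and 0.124 CPM (Cd48) and 134 and 201 CPM (Cd34) in LT-HSC, against 16.4 and 38.8 CPM (Cd48) and 324 and 430 CPM (Cd34) in ST-HSC. With 2 libraries against 2, an exact permutation test of a single value cannot go below a 2-sided p of 0.333.

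The promoters of the receptor genes whose groups separated are shown because these genes differed in direction. RefSeq start-site windows of 300 bases, with 250 bases before and 50 after the start, were at hand for 7 of the 9 genes on build GRCm38.p6. Csf2rb and Csf1r are named only. In the sequences below, read 5′ to 3′ on the gene's own strand, capitals mark matches on either strand to a GATA motif (AGATAA), an ETS motif (GGAAGT), a RUNX motif (TGTGGT) or a STAT motif (TTCNNNGAA), factor families that act in blood cells.
Epor, chr9:21963527-21963826, minus strand: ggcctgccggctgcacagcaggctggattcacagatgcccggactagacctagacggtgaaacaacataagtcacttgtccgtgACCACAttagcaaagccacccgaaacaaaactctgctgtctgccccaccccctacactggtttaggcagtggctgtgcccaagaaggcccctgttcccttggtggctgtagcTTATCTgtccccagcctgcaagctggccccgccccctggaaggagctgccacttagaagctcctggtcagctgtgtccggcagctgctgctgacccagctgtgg
Csf2ra, chr19:61228369-61228668, minus strand: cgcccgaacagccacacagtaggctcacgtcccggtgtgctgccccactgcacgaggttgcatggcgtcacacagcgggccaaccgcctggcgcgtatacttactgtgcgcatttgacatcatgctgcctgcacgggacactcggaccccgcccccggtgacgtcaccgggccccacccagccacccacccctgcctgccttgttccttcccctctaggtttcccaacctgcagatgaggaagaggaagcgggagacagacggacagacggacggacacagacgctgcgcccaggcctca
Flt3, chr5:147400440-147400739, minus strand: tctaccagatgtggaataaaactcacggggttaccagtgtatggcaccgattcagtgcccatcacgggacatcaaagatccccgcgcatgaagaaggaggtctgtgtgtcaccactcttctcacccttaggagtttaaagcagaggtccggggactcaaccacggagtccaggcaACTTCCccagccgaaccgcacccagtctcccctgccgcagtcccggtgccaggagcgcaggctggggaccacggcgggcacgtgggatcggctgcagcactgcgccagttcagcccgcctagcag
The Epor window held a GATA match that begins 54 bases before the start site and a RUNX match that begins 166 bases before it. The Flt3 window held 1 ETS match, beginning 75 bases before the start site, and the Csf2ra window held none of the 4 motifs. No 2 matches overlapped in these windows. Of the windows not shown, that of Il6ra, whose groups overlapped, held 1 GATA match and 2 ETS matches. Those of Kit, Csf3r and Il6st held none of the 4 motifs. Among 32851 windows of the same length in the table, 11.2% held the GATA motif, 23.8% the ETS motif, 16.8% the RUNX motif and 8.3% the STAT motif. A match describes the letters only, and no binding was measured.

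Among the receptor tyrosine kinases, Flt3 differed most between the groups and Kit least. Flt3 had 6.42 and 22 CPM in LT-HSC 1 and 2, against 38.9 and 69.5 CPM in ST-HSC 1 and 2. Both LT-HSC libraries were below both ST-HSC libraries, though the LT-HSC libraries differed from each other by 3.42-fold. The mean was 14.2 ± 11 CPM over the LT-HSC pair and 54.2 ± 21.6 CPM over the ST-HSC pair (n = 2 libraries each, SD), a log2 fold change of -2.02 ± 0.86 (SE) with a 95% interval of -4.25 to 0.20 (limma adjusted p = 0.767). The difference ranged from -2.84 to -1.21 with each library left out in turn, with -1.21 reached without LT-HSC 1. Its sign could not change there, as the groups do not overlap. In such bulk libraries, fewer cells that express a gene and less RNA of it per cell cannot be told apart.

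Kit was the most even of the 9 genes. It had 317 and 362 CPM in LT-HSC 1 and 2, against 291 and 364 CPM in ST-HSC 1 and 2. The groups overlapped, with a log2 fold change of 0.06 ± 0.21 (SE) and a 95% interval of -0.49 to 0.60 (limma adjusted p = 1.0). That interval is the narrowest of the 9 genes and excludes a 2-fold difference in either direction on this scale. The ratio of Flt3 reads to Kit reads within a library, which does not depend on library totals, was 0.0203 and 0.0606 in LT-HSC, against 0.134 and 0.191 in ST-HSC. The ratio was formed after the values were seen.

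Of 8 markers of multipotent progenitors, the 7 listed were read in every library, and their summed level was 888 and 772 CPM in LT-HSC, against 1090 and 1200 CPM in ST-HSC. LT-HSC lay below ST-HSC in 5 of the 7 (17.5% of all tested genes), among them Cd34 and Cd48. A CD34 gate is given for LT-HSC alone, so the Cd34 direction is not independent of the sort. Emb was the other way round, at 99.9 and 113 CPM in LT-HSC, against 63.5 and 78.3 CPM in ST-HSC. Lsp1, the largest part of the sum, overlapped, at 538 and 358 CPM in LT-HSC, against 404 and 334 CPM in ST-HSC. Lymphoid progenitor markers, another setting of Flt3, had summed levels of 169 and 69.7 CPM in LT-HSC, against 141 and 131 CPM in ST-HSC. Il7r and Dntt, which define those cells, had no read in any library. The part of either cell type in the Flt3 and Csf2rb differences was not tested.

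Csf1r, the receptor of monocytes and macrophages, had 33.0 and 9.03 CPM in LT-HSC 1 and 2, against 18.1 and 38.9 CPM in ST-HSC 1 and 2. The groups overlapped, with a log2 fold change of -0.58 ± 0.95 (SE) and a 95% interval of -3.04 to 1.88 (limma adjusted p = 1.0). Monocyte and macrophage markers had summed levels of 186 and 171 CPM in LT-HSC, against 241 and 187 CPM in ST-HSC, with 6 and 3 of 11 listed markers read in LT-HSC and 8 and 6 in ST-HSC. Cx3cr1 had no read in any library. In the GENCODE M21 annotation (build GRCm38) the exons of Csf1r overlap those of Hmgxb3 on the opposite strand, and 17.7% of the 50-base windows of the Csf1r transcript also occur in Hmgxb3 transcripts. Hmgxb3 itself was at 28.9 and 2.54 CPM in LT-HSC, against 1.13 and 5.59 CPM in ST-HSC. Whether reads were counted by strand is not given in the sources used here, so reads in the shared stretch cannot be told apart.

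Of the receptors that pair with themselves, Epor was higher in LT-HSC and Csf3r was level on average but uneven within both groups. Epor had 50.8 and 26.6 CPM in LT-HSC 1 and 2, against 7.38 and 21.1 CPM in ST-HSC 1 and 2. The groups did not overlap, with LT-HSC the higher, but LT-HSC 2 and ST-HSC 2 were close. The mean was 38.7 ± 17.1 CPM over the LT-HSC pair and 14.2 ± 9.70 CPM over the ST-HSC pair (n = 2 libraries each, SD), a log2 fold change of 1.47 ± 0.87 (SE) with a 95% interval of -0.77 to 3.72 (limma adjusted p = 0.846). Between libraries of the same number the log2 difference was 2.63 for number 1 and 0.32 for number 2. The value lay between 0.77 and 2.17 with 1 library left out, the lower one being that without ST-HSC 1.

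The summed level of erythroid markers overlapped between the groups. It was 557 and 417 CPM in LT-HSC, against 661 and 549 CPM in ST-HSC, over 11 listed markers of which 8 and 7 were read in LT-HSC and 9 in each ST-HSC library. The largest parts came from Car2, a carbonic anhydrase gene, and from globin genes, and the defining gene Slc4a1 had no read in any library. LT-HSC lay below ST-HSC in 5 of the 11 markers (17.5% of all tested genes) and above in 0 (16.2%), and 6 overlapped. Among the 5 was Klf1, at 0.306 and 0.124 CPM in LT-HSC, against 27.4 and 9.43 CPM in ST-HSC. Megakaryocyte markers had summed levels of 431 and 459 CPM in LT-HSC, against 304 and 213 CPM in ST-HSC, with 6 and 4 of 8 read in LT-HSC and 7 in each ST-HSC library. Most of the LT-HSC sum was Vwf, at 304 and 380 CPM in LT-HSC, against 45.3 and 9.17 CPM in ST-HSC, the only marker of the 8 with LT-HSC above. In 4 others LT-HSC lay below, where the shares over all tested genes were 17.5% below and 16.2% above. Among the 4 was Itga2b, at 2.45 and 5.01 CPM in LT-HSC, against 152 and 105 CPM in ST-HSC. Stroma and endothelium markers summed to 320 and 261 CPM in LT-HSC, against 195 and 226 CPM in ST-HSC, with 6 and 4 of 8 read in LT-HSC and 4 and 5 in ST-HSC. Most of each sum was Emcn and Pecam1. Emcn had 133 and 165 CPM in LT-HSC, against 122 and 84.1 CPM in ST-HSC. Pecam1 overlapped, at 122 and 80.9 CPM in LT-HSC, against 59.6 and 124 CPM in ST-HSC. LT-HSC lay above in 3 of the 8 (16.2% of all tested genes) and below in 0 (17.5%). Gp6 and Lepr had no read in any library, and the part of these cells in the Epor and Csf2ra differences was not tested. The gene of the ligand, Epo, is made mainly in the kidney of adult mice, yet it was listed at 561 and 499 CPM in LT-HSC, against 558 and 502 CPM in ST-HSC. In GENCODE M21 its exons overlap those of Gnb2 on the same strand, and 7.2% of its 50-base windows occur there. Gnb2 was not among the genes listed for each library, so no level of its own can be given. The part of Gnb2 reads in the Epo level was not tested.

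Csf3r had 70.0 and 210 CPM in LT-HSC 1 and 2, against 183 and 84.8 CPM in ST-HSC 1 and 2. LT-HSC 2 and ST-HSC 1 were high and LT-HSC 1 and ST-HSC 2 low, so that each group held a high and a low library. The log2 fold change was -0.04 ± 0.67 (SE) with a 95% interval of -1.76 to 1.68 (limma adjusted p = 1.0). Neutrophil markers had summed levels of 34.9 and 51.6 CPM in LT-HSC, against 444 and 31.3 CPM in ST-HSC, with 7 and 4 of 8 markers read in LT-HSC and 8 and 2 in ST-HSC. ST-HSC 1 stood apart in these markers, with Lcn2 at 124 CPM and Ngp at 102 CPM. The granulocyte-macrophage progenitor gene Mpo had 0 and 1 reads in LT-HSC, against 151 and 316 reads in ST-HSC. Of the 8 markers of that list, 2 had LT-HSC below (17.5% of all tested genes), 0 had LT-HSC above (16.2%) and 6 overlapped. Elane had 263 and 0 reads in LT-HSC, against 0 and 48 in ST-HSC, and Ms4a3 had 351 and 0, against 105 and 19. The summed level of that marker list was 824 and 673 CPM in LT-HSC, against 728 and 750 CPM in ST-HSC, and Ctsg and Cebpe had no read in any library. The part of either cell type in the Csf3r levels was not tested.

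The chains of the GM-CSF receptor differed in opposite directions. Csf2rb, the signalling chain shared by the receptors for GM-CSF, IL-3 and IL-5, had 39.7 and 22 CPM in LT-HSC 1 and 2, against 84.1 and 113 CPM in ST-HSC 1 and 2. Both LT-HSC libraries were well below both ST-HSC libraries. The mean was 30.9 ± 12.5 CPM over the LT-HSC pair and 98.7 ± 20.7 CPM over the ST-HSC pair (n = 2 libraries each, SD), a log2 fold change of -1.69 ± 0.51 (SE). Its 95% interval of -2.99 to -0.38, not adjusted for the number of genes, lay below 0 (limma adjusted p = 0.716). With each library left out in turn the value ranged from -2.10 to -1.28.

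Csf2ra, the chain that binds GM-CSF, had 61.3 and 50.8 CPM in LT-HSC 1 and 2, against 35.3 and 27.4 CPM in ST-HSC 1 and 2. Both LT-HSC libraries were above both ST-HSC libraries, and the libraries within a group differed by 1.21-fold in LT-HSC and 1.29-fold in ST-HSC. The log2 fold change was 0.82 ± 0.50 (SE) with a 95% interval of -0.46 to 2.11 (limma adjusted p = 0.854), ranging from 0.65 to 1.0 with each library left out. Within a library, the ratio of Csf2ra reads to Csf2rb reads was 1.55 and 2.31 in LT-HSC, against 0.42 and 0.241 in ST-HSC. The ratio was higher in both LT-HSC libraries than in both ST-HSC libraries, whatever the library totals and transcript lengths. With Csf2ra above and Csf2rb below in LT-HSC, this order was fixed in advance. So was its exact permutation p of 0.333 (2-sided), the smallest that 2 against 2 allows, and neither adds support. Per kb of transcript, Csf2ra was above Csf2rb in both LT-HSC libraries and in ST-HSC 1 (19.1 and 17.2 CPM per kb) and below it in ST-HSC 2 (14.8 and 23.1 CPM per kb). The pair was set side by side after the values were seen.

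**Figure D2:**
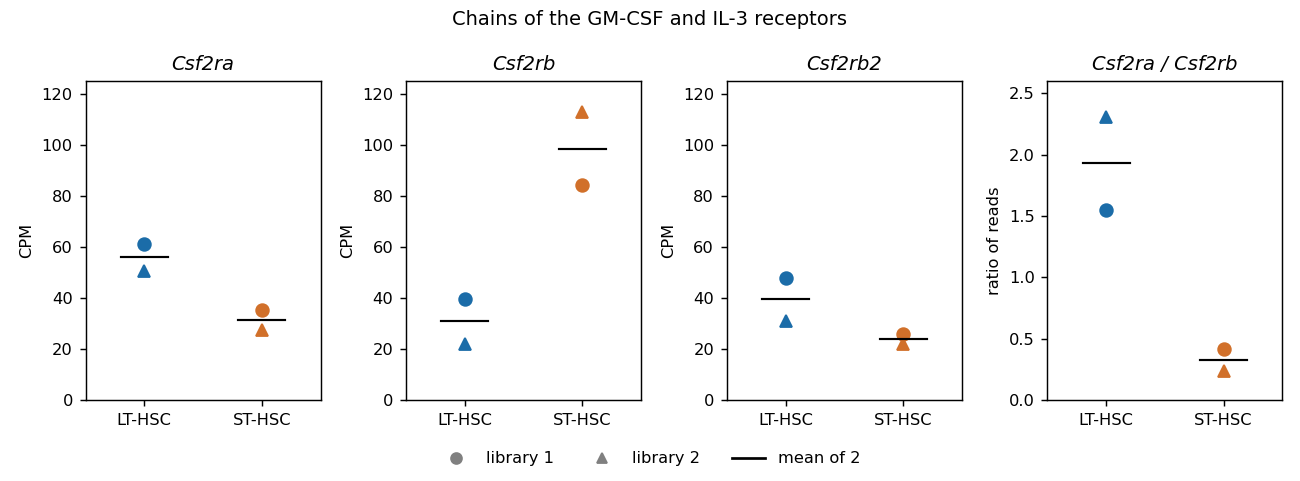
CPM of Csf2ra, Csf2rb and Csf2rb2 and the ratio of Csf2ra to Csf2rb reads, with the LT-HSC libraries at the left and the ST-HSC libraries at the right of each panel and a bar for the mean of 2 libraries. Csf2rb is lower in LT-HSC than in ST-HSC while Csf2ra and Csf2rb2 are higher, and the ratio is 1.55 and 2.31 in LT-HSC, against 0.42 and 0.241 in ST-HSC.

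Mice carry a close copy of Csf2rb on the same chromosome, Csf2rb2, whose product serves the IL-3 receptor alone. Csf2rb2 had 47.9 and 31.0 CPM in LT-HSC 1 and 2, against 25.9 and 22 CPM in ST-HSC 1 and 2. Its groups separated the other way round from those of Csf2rb, with a log2 fold change of 0.67 ± 0.62 (SE) (limma adjusted p = 0.935). Of the reads of both genes together, Csf2rb took 45.3% (95% Wilson interval 42.4 to 48.2) and 41.5% (38.3 to 44.9) in LT-HSC 1 and 2, against 76.4% (74.3 to 78.4) and 83.8% (82.1 to 85.3) in ST-HSC 1 and 2. Amplified reads are not independent molecules, so these intervals hold for counting error alone. With Csf2rb below and Csf2rb2 above in LT-HSC, the order of these shares was fixed in advance and adds no support. In GENCODE M21, 18.4% of the 50-base windows of the Csf2rb transcript also occur in Csf2rb2 transcripts, and the treatment of reads that fit both genes is not given in the sources used here, so the split between them is uncertain. With the reads of both summed as 1 gene, an alternative chosen after the values were seen, the log2 fold change of Csf2rb was -0.83 in place of -1.69 (limma adjusted p = 0.809), and the groups still did not overlap. Il3ra, the chain that binds IL-3, had 3.52 and 12.7 CPM in LT-HSC, against 5.72 and 2.22 CPM in ST-HSC, and Il5ra had no read in any library.

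Mast cells and basophils also use these chains. Of 8 of their markers, 2 were read in LT-HSC 1, 0 in LT-HSC 2 and 1 in each ST-HSC library. Their summed level was 22.2 and 0 CPM in LT-HSC, against 16.6 and 6.34 CPM in ST-HSC. Fcer1a and Ms4a2, which define them, had no read in any library. LT-HSC lay below ST-HSC in 1 of the 8 (17.5% of all tested genes), Cpa3, at 0.612 and 0 CPM in LT-HSC, against 16.6 and 6.34 CPM in ST-HSC. The LT-HSC 1 sum was mostly Mcpt8, at 21.6 CPM, which had no read in the other libraries. The part of these cells in the Csf2rb difference was not tested.

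The chains of the IL-6 receptor varied more between libraries of a group than between groups. Il6ra, which binds IL-6, had 29.4 and 1.49 CPM in LT-HSC 1 and 2, against 4.12 and 9.57 CPM in ST-HSC 1 and 2. Its LT-HSC libraries differed by 19.8-fold, the widest within-group ratio of the 9 genes, and enclosed both ST-HSC values. The log2 fold change was 0.24 ± 1.55 (SE) with a 95% interval of -3.76 to 4.24 (limma adjusted p = 1.0). Il6st, the shared signalling chain gp130, had 15.0 and 16.3 CPM in LT-HSC 1 and 2, against 47.1 and 6.13 CPM in ST-HSC 1 and 2. Here the LT-HSC libraries were alike and lay between ST-HSC libraries that differed by 7.68-fold. The log2 fold change was -0.16 ± 1.18 (SE) with a 95% interval of -3.19 to 2.88 (limma adjusted p = 1.0). At this spread, a difference in either chain was not detectable. The ratio of Il6ra reads to Il6st reads was 1.96 and 0.0913 in LT-HSC, against 0.0874 and 1.56 in ST-HSC, so each group held a library with a high and a library with a low ratio.

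**Figure D3:**
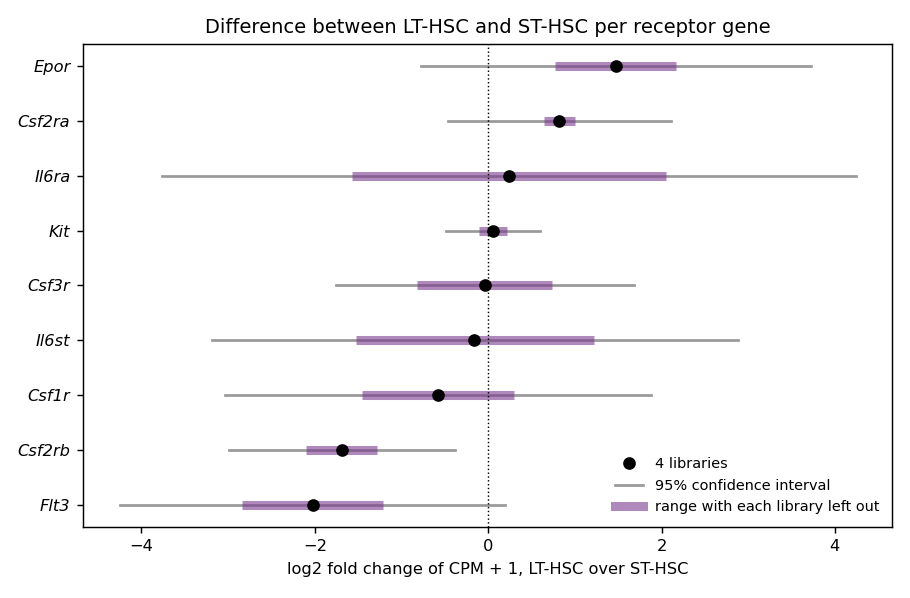
Log2 fold change of CPM + 1, LT-HSC over ST-HSC, for the 9 receptor genes with its 95% confidence interval (thin line) and the range with each of the 4 libraries left out in turn (thick band). The bands of Epor and Csf2ra stay above 0 and those of Csf2rb and Flt3 below it, as they must where groups do not overlap. The other 5 bands cross 0. The Csf2rb interval is the only one of the 9 that does not include 0.

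Levels can be set against each other only per transcript length. Divided by the length of the longest protein-coding transcript in GENCODE M21, the mean levels in LT-HSC ran from Kit (64.8 CPM per kb) through Csf3r (40.2), Csf2ra (30.3), Epor (22), Csf2rb (6.30), Csf1r (4.47), Flt3 (3.88) and Il6st (1.80) to Il6ra (1.79). In ST-HSC the order was Kit (62.5 CPM per kb), Csf3r (38.5), Csf2rb (20.2), Csf2ra (16.9), Flt3 (14.8), Epor (8.08), Csf1r (6.06), Il6st (3.07) and Il6ra (0.793). In LT-HSC the library values of neighbours in this order overlapped except between Kit and Csf3r, which were only just apart at 60.5 and 60.2 CPM per kb, and between Epor and Csf2rb. In ST-HSC they overlapped except between Kit and Csf3r and between Csf3r and Csf2rb. Kit and Csf3r changed places in both groups when all annotated exons were used as the length, with 38.1 and 38.7 CPM per kb in LT-HSC and 36.8 and 37.1 in ST-HSC. By that length Il6st and Il6ra also changed places in LT-HSC, with 1.41 and 1.79 CPM per kb.

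For each receptor gene whose levels spanned at least 1 log2 unit, which all but Kit did, the most alike profiles were sought among 10793 other named genes over the 4 libraries. Likeness was the root mean square difference of log2(CPM + 1) after centring. Nearest to Csf2ra was Pdk1 (0.0209), a kinase of pyruvate dehydrogenase, at 175 and 149 CPM in LT-HSC, against 105 and 82.4 CPM in ST-HSC, followed by Shmt1 (0.0559). Nearest to Csf2rb were Spc25 (0.0624), a kinetochore gene at 59.0 and 32.9 CPM in LT-HSC, against 113 and 156 CPM in ST-HSC, and Fam60a (0.0779). Entpd1 (0.085) and Gemin6 (0.0971) were nearest to Flt3, and Rras (0.0828) and Tmem14a (0.0869) to Epor. The nearest to genes with overlapping groups were Mad2l1bp (0.0453) and Spice1 (0.0953) for Csf1r, Slc4a1ap (0.0542) and Itpripl1 (0.0615) for Csf3r, Vps37c (0.0772) and Dynll2 (0.0977) for Il6st, and Bco2 (0.112) and Wdpcp (0.117) for Il6ra. With 4 libraries and so many genes, such likeness only describes these libraries.

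Genes around the receptors were taken from fixed lists of ligands, related chains, JAK and STAT genes, adaptors, negative regulators, STAT targets and transcription factors. No gene of these lists passed the adjusted threshold in either direction. Of 13 ligand genes, 4 were tested, with a median log2 fold change of 0.44 and 0 with groups that did not overlap. Csf3, Csf2, Il3, Il6 and Lif had no read, Kitl was under the filter, and Flt3l was not analysed here. Csf1, which binds Csf1r, had 24.7 and 1.80 CPM in LT-HSC, against 19.2 and 0.0674 CPM in ST-HSC. Il34, the other ligand of Csf1r, had 20.0 and 0 CPM in LT-HSC, against 0.532 and 1.35 CPM in ST-HSC. Of 10 related chains, 6 were tested, with a median of 0.52, 3 with LT-HSC above (16.2% of all tested genes) and 0 with LT-HSC below (17.5%). Besides Csf2rb2 these were Il27ra, which pairs with gp130 for IL-27, at 47.3 and 61.0 CPM in LT-HSC, against 22.8 and 36.7 CPM in ST-HSC, and Il11ra1, which pairs with gp130 for IL-11, at 951 and 698 CPM in LT-HSC, against 673 and 596 CPM in ST-HSC. The Il11ra1 level is uncertain, because 46.5% of its 50-base windows also occur in transcripts of its copy Gm13305.

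The JAK and STAT genes were read in all 10 listed cases, with a median of -0.01, 3 with LT-HSC above (16.2% of all tested genes) and 1 with LT-HSC below (17.5%). Stat5a, a main effector of Kit, Epor and Csf2rb signalling, had 307 and 255 CPM in LT-HSC, against 236 and 198 CPM in ST-HSC (log2 fold change 0.37 ± 0.23 SE, limma adjusted p = 0.86). Its relative Stat5b had 75.6 and 86.0 CPM in LT-HSC, against 57.4 and 66.8 CPM in ST-HSC. Stat4 had 173 and 213 CPM in LT-HSC, against 127 and 172 CPM in ST-HSC. Jak3, which works with another receptor family, had 96.4 and 90.8 CPM in LT-HSC, against 164 and 108 CPM in ST-HSC. Jak2, which is bound by Epor and Csf2rb, had overlapping groups, with 68.8 and 87.7 CPM in LT-HSC, against 98.4 and 74.3 CPM in ST-HSC.

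Among 23 tested adaptor and kinase genes the median was -0.11, with LT-HSC above in 3 (16.2% of all tested genes), below in 4 (17.5%) and overlapping in 16, and 1 higher at an unadjusted p under 0.05, beside 2.87% of all tested genes. That gene was Pik3r1, the regulatory subunit of PI 3-kinase, at 153 and 323 CPM in LT-HSC, against 79.7 and 107 CPM in ST-HSC (log2 fold change 1.26 ± 0.44 SE, limma adjusted p = 0.755). Grb2, the adaptor that links receptors to Ras, had 172 and 155 CPM in LT-HSC, against 237 and 215 CPM in ST-HSC (log2 fold change -0.47 ± 0.23 SE). Pik3cd, a catalytic subunit of PI 3-kinase, had 259 and 229 CPM in LT-HSC, against 215 and 87.3 CPM in ST-HSC.

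The 18 negative regulators, all tested, had a median of 0.30, with LT-HSC above in 5 and below in 2. Over all tested genes these shares were 16.2% above and 17.5% below. At an unadjusted p under 0.05, 3 were higher, beside 2.87% of all tested genes, and 0 lower, beside 3.60%. Cish, a feedback inhibitor induced by STAT5, had 349 and 315 CPM in LT-HSC, against 175 and 173 CPM in ST-HSC (log2 fold change 0.92 ± 0.21 SE, limma adjusted p = 0.716). Socs2, of the same family, had 407 and 337 CPM in LT-HSC, against 173 and 229 CPM in ST-HSC (0.89 ± 0.25 SE, limma adjusted p = 0.716). Sh2b3, which encodes the adaptor Lnk that restrains Kit and JAK2 signalling, had 50.8 and 39.6 CPM in LT-HSC, against 9.24 and 0.135 CPM in ST-HSC (3.75 ± 1.35 SE, limma adjusted p = 0.762). The Sh2b3 value rests on ST-HSC 2, with 2 reads, and was 2.16 without it. Socs2 shares 18.4% of its 50-base windows with the gene model Gm9847, and Cish 15.8% with gene models that overlap it.

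The 11 tested STAT target genes had a median of 0.34, with LT-HSC above in 2 and below in 0, beside 16.2% above and 17.5% below over all tested genes, so that the count above is near the background. These were Junb, a transcription factor gene, at 68.0 and 72.8 CPM in LT-HSC, against 35.1 and 29.5 CPM in ST-HSC, and the survival gene Mcl1, at 181 and 175 CPM in LT-HSC, against 138 and 143 CPM in ST-HSC. Bcl2l1, another survival gene, overlapped at 104 and 214 CPM in LT-HSC, against 74.9 and 112 CPM in ST-HSC. Myc had overlapping groups, at 579 and 452 CPM in LT-HSC, against 517 and 596 CPM in ST-HSC. Among 7 tested transcription factor genes of the blood the median was 0.13, with LT-HSC above in 1, below in 0 and overlapping in 6. Over all tested genes the shares were 16.2% above and 17.5% below, so the count above is near the background. The gene above was Gfi1, a repressor of HSC proliferation, at 28.4 and 67.7 CPM in LT-HSC, against 16.6 and 10.2 CPM in ST-HSC (log2 fold change 1.68 ± 0.79 SE, limma adjusted p = 0.808). Lmo2 overlapped, at 798 and 687 CPM in LT-HSC, against 692 and 658 CPM in ST-HSC.

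**Figure D4:**
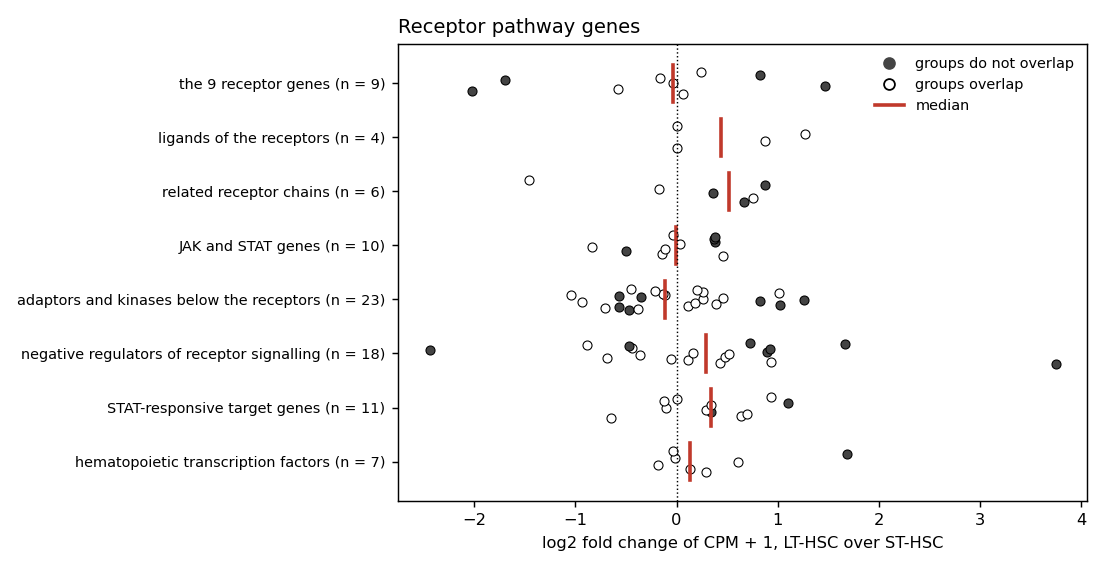
Log2 fold change of CPM + 1, LT-HSC over ST-HSC, of each tested gene of the receptors and of 7 pathway lists, with filled points where the groups do not overlap and a red line at each median. The receptor genes spread to both sides of 0 around a median of -0.04, and the negative regulators have a median of 0.30.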

How the data were processed

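RNA from 2000 sorted cells per library was turned into cDNA (SMARTer kit) for Illumina sequencing, per the labels' protocols. TopHat and the mm9 build are named in the submitters' processing notes. Counter, annotation and treatment of shared reads: not given in the sources used here. The authors deposited 1 log2 value per gene and library. Its steps are those of log2 of reads plus 1 per 1000000 library reads. Undoing this gave whole reads, within 0.1 of a whole number for 100% of values up to 100 reads, and CPM on the authors' totals. A floor of 3 reads is 0.186 to 0.229 CPM.

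The 12569 genes that reached 1 CPM in 2 or more libraries were tested, 2-sided, as log2(CPM + 1) by limma (version 3.58.1 under R 4.3.3, statmod 1.5.0), using its trend and robust options, with Benjamini-Hochberg adjustment over all of them and a threshold of 0.05. The fit was tested on simulated reads. All 4 libraries entered the fit with the group as the only term. Alternatives were other scaling factors, filters, added values, limma-voom on reads, no robust shrinkage, the replicate number as a block, each library left out, and Csf2rb summed with Csf2rb2.

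Shared sequence, exon overlap and transcript lengths came from GENCODE M21, and promoters from RefSeq, both on another build than the files, so that no coordinates were joined. Sfpi1 was matched as the older symbol of Spi1. The receptor genes and lists were chosen with earlier results of these data known. Named genes were the receptor genes, the genes of the gates, up to 3 members of each list with the smallest p and up to 2 with the highest level, leading markers and the 2 most alike genes. Genes named beyond this rule, among them Il3ra, Il5ra, Stat5b, Jak2, Hmgxb3, Kitl and ligands without a read, were chosen for their tie to a receptor gene after their values were seen. One gene that the rule named is not reported here; it stays in its list's counts. For most leading markers the list's sum stands in place of a level, and some pathway genes with overlapping groups are given by their range under the alternatives alone.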

Additional observations from a re-analysis of the deposited data

How the results depend on the processing

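No alternative gave a gene past the adjusted threshold, for which the count stayed at 0. At an unadjusted p under 0.05 the count of 814 ranged from 586 to 878 with all libraries and with 1 library left out from 415, where ST-HSC 2 was dropped, to 1116, where LT-HSC 2 was. The 4 receptor genes with separate groups were 4 under each other scaling; with 1 library left out the count ranged from 6 to 7, because fewer libraries have to be ordered. Flt3, Csf2rb, Epor and Csf2ra kept their direction under every alternative run, and the other 5 did not. For those 4, whose groups do not overlap, leaving out 1 library could not change the direction. With 1 library left out the log2 fold change ranged from -0.10 to 0.22 for Kit, -1.46 to 0.30 for Csf1r, -0.82 to 0.74 for Csf3r, -1.53 to 1.22 for Il6st and -1.57 to 2.05 for Il6ra. With limma-voom on reads it was 0.03 for Csf3r, -0.11 for Il6ra, -0.43 for Il34 and -0.01 for Epo; the cause was not tested. Among the pathway genes it ranged, with 1 library left out, from -1.25 to 2.99 for Csf1, -0.08 to 0.09 for Epo, -0.85 to 0.91 for Stat3, -0.54 to 0.28 for Nras, -0.08 to 0.30 for Ptpn6, -0.30 to 0.06 for Myc, -0.20 to 0.00 for Ccnd2, -0.04 to 1.27 for Runx1 and -0.31 to 0.22 for Myb. Of 516 single-gene values under alternatives, 490 kept their direction. That count is no support for any gene, as all fits used the same libraries and many genes were named for a small p. Where groups do not overlap, leaving out 1 library could not reverse the direction. List medians ranged, with 1 library left out, from -0.73 to 2.13 for ligands, -0.35 to 0.20 for adaptors, 0.04 to 0.51 for negative regulators and 0.05 to 0.36 for STAT targets.

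The labels tie same-numbered libraries by number alone and do not say whether they share a sort or animals. Deviations from the group means of the libraries numbered 1 correlated at 0.052 across genes, which cannot settle this. With the replicate number as a block, 0 genes passed the adjusted threshold and 878 the unadjusted one. Each receptor gene had 24 reads or more in every library.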
